A study of Mus musculus with 4 samples.

Results

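The genes described are the laminin chains and integrin subunits of the mouse. They were chosen by symbol alone: every gene of the deposited tables whose symbol is Lama, Lamb or Lamc with a number, or Itga or Itgb with a number or a subunit letter. The pattern took 37 of 19465 genes, of which 11 are laminin chains and 26 carry an integrin symbol. Of these, 34 had at least 100 unique molecular identifiers (UMIs, each standing for 1 captured molecule) over all spots, also those outside tissue. They are described, and 3 (Itgax, Itgae and Itgad) had fewer and are only counted. Itgbl1 matched the pattern by name and is kept, although it encodes an integrin-beta-like protein and no receptor subunit. Expression was measured by Visium, a method that counts transcripts in barcoded spots under a tissue section, on fixed, paraffin-embedded coronal sections of whole heads of wild-type mouse embryos at embryonic day 14.5 (E14.5) and 15.5 (E15.5). No group carried an allele or a treatment, so by the labels the groups differ in stage alone. Each stage had 2 capture areas, each a single library: replicate 1 was a section of its own, and replicates 2, 3 and 4 shared an area and a library. Whether the sections came from different embryos is not given in the labels, so p-values measure the spread between capture areas only.

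Laminins are cross-shaped trimers of an alpha, a beta and a gamma chain that polymerise into the sheet of the basement membrane. Integrins are pairs of an alpha and a beta subunit that span the cell membrane, bind laminin, collagen or other matrix proteins outside, and join the actin or keratin cytoskeleton inside through talin, kindlin and plectin. In the developing palate the epithelium that covers the shelves rests on such a basement membrane, and the epithelial seam is lost when the shelves fuse.

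The areas held 6357 tissue spots and 281039627 UMIs. Totals per area ranged from 15438992 UMIs in E14.5 replicate 1, the shallowest with a median of 6752 UMIs per spot, to 109127953 in E14.5 replicates 2,3,4, and the other 3 areas had medians between 45058.5 and 64051. Between 540 and 1388 spot barcodes were shared by any pair of areas, as slides use the same barcode set, so spots were kept apart by area. Each spot can cover several cells of different types. In all, 10 sets of spots, called regions here, were formed in each area from the 5% of spots with the highest share of UMIs in a list of cell type markers that holds no laminin or integrin gene, and each region is named by its list. Values are CPM, the UMIs of a gene scaled to the total UMIs of the summed spots. They are compared within a gene, never between genes, since the capture of each gene is unknown. In such sums, fewer cells of a type and less RNA per cell cannot be told apart. Values for the areas are given in the order E14.5 replicate 1, E14.5 replicates 2,3,4, E15.5 replicate 1 and E15.5 replicates 2,3,4.

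The sequences just before the transcription start are shown for 3 members that led the differences between regions: Lamb3 (epithelium), Itga10 (bone and cartilage) and Itga4 (skeletal muscle). The windows come from RefSeq on GRCm38.p6, hold 250 bases ending at the base before the start, and were found for 23 of the 37 members. Capitals mark matches, on either strand, of 4 motifs: TGANTCA (AP-1), CAGCTG (the E-box form bound by myogenic factors), TGTGGT (RUNX) and ACAATG (SOX).
Lamb3, chr1:193301744-193301993, plus strand: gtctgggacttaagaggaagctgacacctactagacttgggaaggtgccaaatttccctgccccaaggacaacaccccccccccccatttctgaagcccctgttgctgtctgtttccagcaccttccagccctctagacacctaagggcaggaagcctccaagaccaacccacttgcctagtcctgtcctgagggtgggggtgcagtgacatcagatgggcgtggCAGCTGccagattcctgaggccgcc
Itga10, chr3:96645334-96645583, plus strand: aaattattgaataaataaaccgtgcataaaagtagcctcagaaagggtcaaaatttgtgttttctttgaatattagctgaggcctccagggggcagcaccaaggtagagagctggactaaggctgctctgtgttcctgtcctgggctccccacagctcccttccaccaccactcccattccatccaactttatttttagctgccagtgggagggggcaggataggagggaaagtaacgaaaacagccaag
Itga4, chr2:79255176-79255425, plus strand: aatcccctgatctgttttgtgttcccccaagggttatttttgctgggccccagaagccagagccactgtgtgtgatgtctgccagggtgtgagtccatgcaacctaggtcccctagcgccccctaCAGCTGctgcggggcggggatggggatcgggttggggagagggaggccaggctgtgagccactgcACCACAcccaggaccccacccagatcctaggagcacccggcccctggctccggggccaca
The Lamb3 window belongs to a start 94295 bases from the first base of the GENCODE gene model. CAGCTG stood 125 bases before the start of Itga4 and 25 bases before that of Lamb3. It was in windows of 5 of the 23 members and in 4271 of the 32851 windows of the table. The complement of TGTGGT stood 60 bases before the Itga4 start, and 4614 of all windows hold that motif on either strand. TGANTCA and ACAATG, held by 2217 and 3512 of all windows, were in none of the 3 windows shown, and no matches overlapped.

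Over all spots, also those outside tissue, the UMIs caught per described member ranged from 735 (Itgal and Itgam) to 83157 (Itgb5), which sets how finely each could be followed. Itgb5, the beta subunit of the vitronectin receptor, had 138, 341, 240 and 309 CPM and was met in 54.1% to 95.4% of the spots of an area. The chains of the common laminin core were seen in all areas, with 195, 231, 271 and 288 for Lamb1 and 160, 230, 228 and 212 for Lamc1. Itgb1, the beta subunit shared by most matrix-binding alpha subunits, had 114, 104, 111 and 160. Itgal, the alpha subunit of the leukocyte receptor LFA-1, had 1.04, 2.57, 2.30 and 3.18 and was met in 1.45% to 13.4% of spots. In the shallow E14.5 replicate 1 the level was the lowest of the 4 areas for Itgb5, Lamb1, Lamc1 and Itgal, and not for Itgb1.

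**Figure D1:**
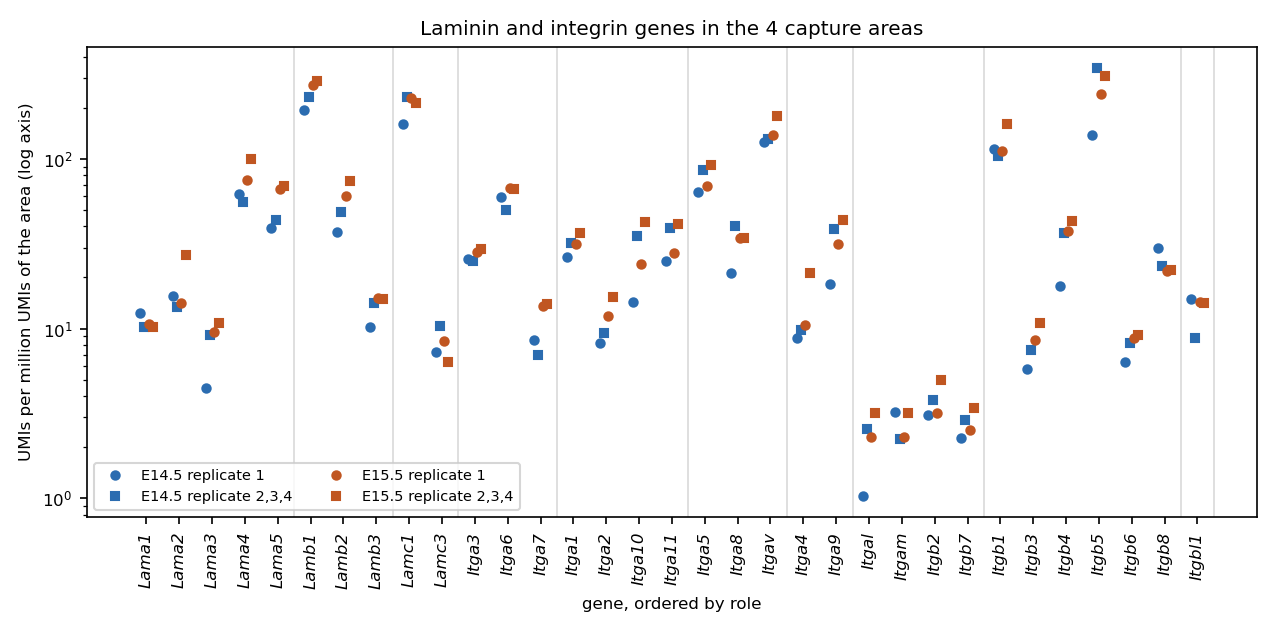
Level of 33 of the 34 described members in the 4 capture areas, in CPM of the area (log axis); circles are the replicate 1 areas and squares the areas of replicates 2,3,4, blue for E14.5 and orange for E15.5. Of those drawn, 15 had both E15.5 areas above both E14.5 areas and 1, Itgb8, had both below.

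Between the stages, no member passed the test. With an edgeR quasi-likelihood fit of the 4 areas, 0 of 34 members and 0.0% of the 15609 genes tested had an adjusted p under 0.1, and the lowest adjusted p of a member was 0.769. At an unadjusted p under 0.05 there were 3 members, all 3 higher, against 5.96% of all genes (2.99% higher and 2.97% lower). With DESeq2, the same 3 members, Lama5 and Itga7 among them, had an adjusted p under 0.1, all 3 higher, as did 3.31% of the genes that DESeq2 tested (1.74% higher and 1.56% lower). Itga7, the alpha subunit of the muscle laminin receptor, had 8.61, 6.96, 13.6 and 13.9 CPM, with both E15.5 areas above both E14.5 areas (log2 fold change 0.77 ± 0.30, SE; edgeR adjusted p = 0.769, DESeq2 adjusted p = 0.0673). Lama5, the alpha chain of the embryonic laminin-511, had 39.2, 43.4, 66.1 and 69.2 (log2 0.65 ± 0.23; edgeR adjusted p = 0.769, DESeq2 adjusted p = 0.0249). Itga4, the alpha subunit that binds fibronectin and VCAM-1, had 8.74, 9.80, 10.5 and 21.2 (log2 0.70 ± 0.39), so that its difference came mostly from a single area. The 3 members with the lowest values were Itgb8 at -0.33 ± 0.26, Lamc3 at -0.33 ± 0.35 and Lama1 at -0.17 ± 0.29. Itgb8 had 29.7, 23.5, 21.8 and 22.2, Lamc3 had 7.25, 10.4, 8.45 and 6.38 and Lama1 had 12.4, 10.2, 10.7 and 10.2. The median log2 fold change was 0.24 over the members and -0.00 over all genes tested. The E15.5 areas were both above the E14.5 areas for 16 of 34 members (47.1%) and for 24.9% of all genes tested, and below for 1 member and for 15.2% of all genes. Without E15.5 replicate 1, 78 genes and 0 members were called. The sections of both stages need not hold the same share of each tissue, and the part of that share in these values was not tested.

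Between regions of the head the same genes differed widely. Each region was compared with all other spots of the same area in an edgeR fit with the area as a term, and a member was called at an adjusted p under 0.1 over all genes. The members differed in where they were highest. Put together after their values were seen, and with no test, Lama3, Lamb3, Lama5, Itgb4, Itga3 and Itga6 were among those with their highest log2 fold change in epithelium spots. Itga4, Itga7, Itga9, Itgb6 and Lama2 had it in skeletal muscle, and so did Itga5, Itgb1, Lama4, Lamb1 and Lamc1. Lamc3, Itgbl1, Itgb5, Itga8 and Itgav had it in palatal mesenchyme, and Itga10, Itga11 and Itgb3 in bone. Macrophage spots held it for Itgal, Itgam, Itgb2, Itgb7 and Itga2, and radial glia spots for Itgb8 and Lama1. For Lamb2 it was in cartilage and for Itga1 in endothelium spots. Many were called higher in several regions, Lama4 in 7, Lamb1, Lamb2, Lamc1, Itga5 and Itgav in 6 each and Lama5 in 5 of the 10. The other spots of each comparison include neural tissue, where most members were low. By the median over areas, the neuron list was 0.0966-fold in skeletal muscle to 0.674-fold in cartilage spots across the non-neural regions. Its part in these counts was not tested. The log2 fold changes of a member over the 10 regions spread least for Itga1 (-0.80 to 0.98) and Itga6 (-0.88 to 0.999) and most for Lamb3 (-2.80 to 2.98), Itgb4 (-2.97 to 2.61) and Itga7 (-3.25 to 2.21). These ranges are descriptions, and the lower end of that of Itga7 rests on few UMIs. The fold changes are relative to TMM scaling. Scaling by library size in its place moved the median of all genes by -0.21 in bone and -0.17 in skeletal muscle and by under 0.1 elsewhere. The share of calls over all genes that were higher went from 49.3% to 23.0% in bone, from 44.8% to 25.9% in skeletal muscle, from 53.0% to 39.7% in cartilage and from 46.6% to 35.8% in Schwann spots. No called member changed sign under it in any region, while the members' split in bone went from 12 higher and 7 lower to 10 higher and 11 lower.

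**Figure D2:**
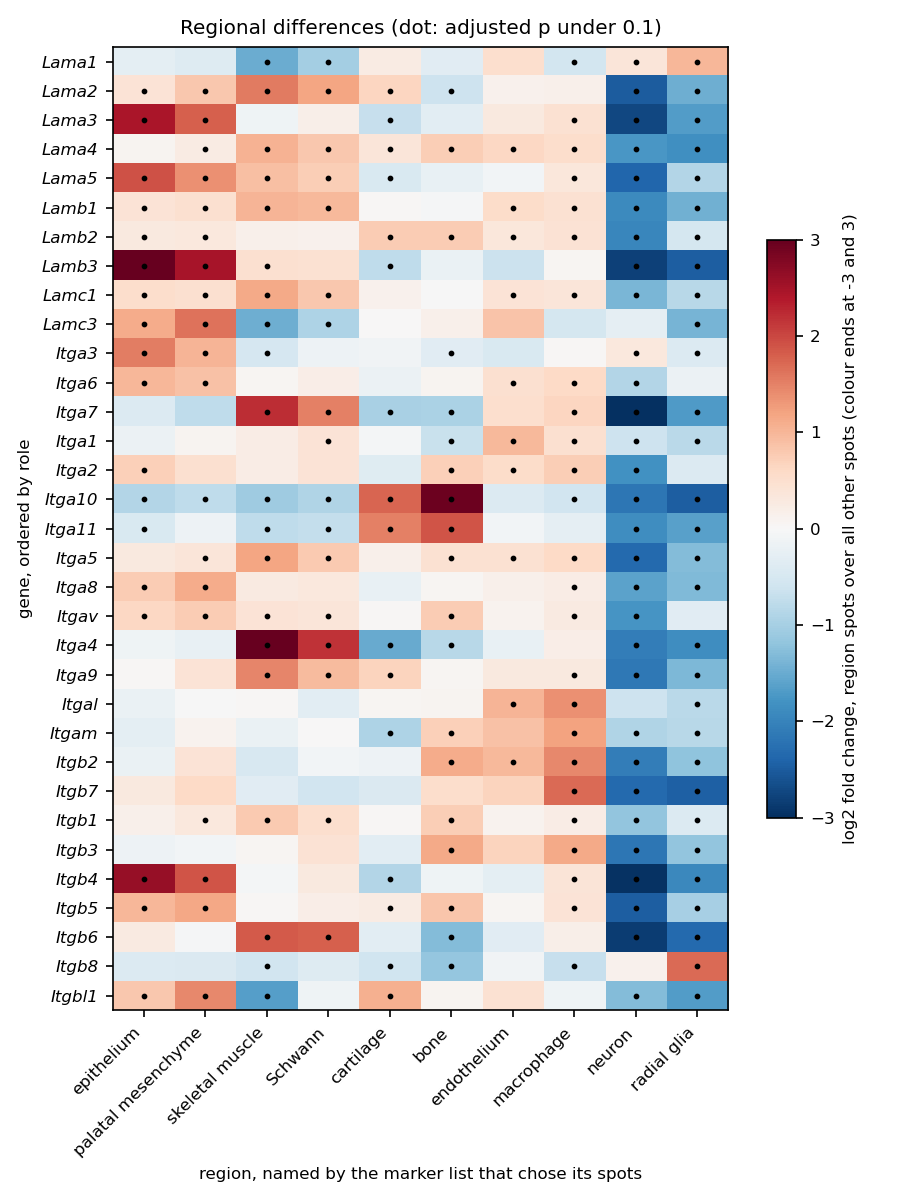
Log2 fold change of 33 of the 34 described members (rows, by role) in the 10 regions (columns), region spots over all other spots; red is higher, blue lower, the colour ends at -3 and 3, and a dot marks an edgeR adjusted p under 0.1. Neuron and radial glia spots are blue and dotted for 28 of the members drawn in each, and the reddest cells are Itga4 in skeletal muscle, Lamb3 in epithelium and Itga10 in bone.

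In epithelium spots (list Krt5, Krt14, Krt15, Krt17, Trp63 and Perp, between 6.59-fold and 18.3-fold higher inside) Lamb3, Itgb4 and Lama3 were among the members that led. There, 17 members were higher and 2 lower, with 37.2% of 13635 genes called in either direction (17.3% higher and 19.9% lower), and the median log2 fold change was 0.30 over members and 0.00 over all genes. Lamb3 (chr1:193207699-193343878, GRCm38, plus strand), the beta chain of laminin-332, had 119, 90.3, 72.6 and 72.2 CPM inside and 6.83, 10.4, 12.0 and 11.2 outside. Every inside value was above every outside value (log2 2.98 ± 0.20, adjusted p = 8.43e-05). Lama3, the alpha chain of the same laminin, had 40.4, 41.8, 41.6 and 39.1 inside and 3.42, 7.59, 7.83 and 8.93 outside, a steadier inside level than that of Lamb3 (log2 2.44 ± 0.19, adjusted p = 0.000102). The receptor that anchors this laminin to keratin in the hemidesmosome is the pair of Itga6 and Itgb4. Itgb4 (chr11:115974709-116008412, plus strand) had 166, 186, 167 and 162 inside and 13.4, 29.3, 30.4 and 35.0 outside (log2 2.61 ± 0.18, adjusted p = 8.64e-05). Itga6 had 146, 93.1, 131 and 117 inside and 57.0, 48.2, 64.2 and 63.4 outside (log2 0.999 ± 0.09, adjusted p = 0.00016). Thus both subunits were higher inside in 4 of 4 areas, by unequal amounts. Lama5 rose too, with 204, 146, 205 and 185 inside and 33.5, 38.4, 58.5 and 61.6 outside (log2 1.90 ± 0.14, adjusted p = 9.29e-05), as did Itga3, the alpha subunit of another laminin receptor of epithelia (log2 1.53 ± 0.15). The core chains Lamb1 (0.40), Lamc1 (0.54) and Lamb2 (0.30) were called higher by far less. The call of Lamb1 was lost without E14.5 replicates 2,3,4 (adjusted p = 0.13), and that of Lamb2 without that area (0.222) or without E15.5 replicate 1 (0.213). The 2 members called lower were Itga10, with 0, 24.7, 15.2 and 19.7 inside and 14.7, 35.8, 24.6 and 43.8 outside (log2 -0.88 ± 0.22), and Itga11, with 31.4, 34.1, 18.6 and 24.9 inside and 24.9, 39.5, 28.4 and 42.7 outside (log2 -0.46 ± 0.16). Both are collagen-binding subunits, but of the others of that kind Itga2 was called higher and Itga1 was not called. Itga11 was higher inside in E14.5 replicate 1, and its call was lost without E15.5 replicate 1 (log2 -0.40, adjusted p = 0.245) or without E15.5 replicates 2,3,4 (-0.29, adjusted p = 0.248). The palatal mesenchyme list was also 2.45-fold to 4.16-fold higher in epithelium spots, and its part in the values was not tested.

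Spots chosen by the palatal mesenchyme list (Osr2, Pax9, Shox2, Barx1 and Msx1) had Lamb3 and Itgb4 among the leading members as well. Lamc3, Itgbl1, Itgb5 (1.17), Itga8 and Itgav (0.77) were also called higher, with their highest log2 fold change of the 10 regions in these spots. Itgb5 was called higher in epithelium, bone, macrophage and cartilage spots too. Here 19 members were higher and 1 lower, with 32.1% of 13623 genes called (14.5% higher and 17.6% lower), and the median was 0.44 over members and 0.00 over all genes. Lamb3 had 78.6, 74.2, 61.5 and 51.6 inside and 7.62, 11.0, 12.7 and 12.5 outside (log2 2.48 ± 0.20, adjusted p = 0.000439). Itgb4 had 82.4, 128, 127 and 110 inside and 15.5, 31.8, 32.7 and 38.4 outside (1.88 ± 0.13). Both genes were higher inside in 4 of 4 areas. Itga10 was the member called lower, with 5.62, 23.9, 17.6 and 21.2 inside and 14.6, 35.9, 24.4 and 43.7 outside (-0.76 ± 0.15). The epithelium list was itself 3.43-fold to 8.14-fold higher in these spots, and 28% to 31.8% of them were epithelium spots as well. Leaving out the 10% of spots with the highest epithelium share left between 28 and 58 spots per area, where the epithelium list was still 2.28-fold to 5.38-fold higher. In that fit 20 members were higher and 2 lower, with 27.9% of genes called (12.0% higher and 15.9% lower). Lamc3, the gamma chain of laminins found outside many basement membranes, then led with Lamb3, at 2.10 ± 0.17 (adjusted p = 4.07e-05) against 2.10 ± 0.20 for Lamb3. With all palatal spots, Lamc3 had 20.6, 28.8, 27.9 and 15.7 inside and 6.81, 9.43, 7.41 and 5.76 outside (1.63 ± 0.14, adjusted p = 0.000567). Itga8, the alpha subunit that binds nephronectin, was 1.24 ± 0.15 without the epithelium spots and 1.10 ± 0.15 with them. Itgbl1, the integrin-beta-like gene, had 52.4, 20.7, 35.0 and 34.1 inside and 13.6, 8.22, 13.3 and 12.7 outside (1.44 ± 0.13, adjusted p = 0.000568), and 1.01 ± 0.19 without the epithelium spots.

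In skeletal muscle spots (list of 8 contractile genes, 6.75-fold to 19.1-fold higher inside) Itga4 showed the largest log2 fold change toward higher of any member in any region. Of the members, 13 were higher and 7 lower, with 46.7% of 13668 genes called (20.9% higher and 25.8% lower), and the median was 0.18 over members and -0.02 over all genes. Itga4 (chr2:79255426-79333123, plus strand) had 86.0, 51.8, 52.3 and 95.4 inside and 7.59, 6.27, 6.96 and 15.3 outside (log2 3.08 ± 0.13, adjusted p = 2.2e-06). The value of the shallow E14.5 replicate 1 rests on 19 UMIs. The muscle spots of that area held 221044 UMIs in all. Its inside values for the other members given here, all at lower CPM, therefore rest on fewer UMIs still. Itga7 (chr10:128933818-128958282, plus strand), the laminin receptor subunit of muscle fibres, had 40.7, 25.8, 46.4 and 39.2 inside and 8.12, 5.37, 10.8 and 11.9 outside (2.21 ± 0.14, adjusted p = 4.91e-06). Lama2, the alpha chain of the muscle laminin-211 that Itga7 binds, had 63.3, 29.1, 37.6 and 54.7 inside and 14.9, 12.1, 12.2 and 25.0 outside (1.55 ± 0.14, adjusted p = 3.2e-05). Itgb6, a partner of Itgav known mainly from epithelia, was the third of the leading members. It had 31.7, 28.4, 23.9 and 17.2 inside and 5.94, 6.48, 7.47 and 8.497 outside, higher inside in 4 of 4 areas (1.84 ± 0.21, adjusted p = 0.000123), where the epithelium list was 0.743-fold to 1.70-fold and the Schwann list 2.18-fold to 3.06-fold. Set directly against epithelium spots, muscle spots had more Itgb6 by log2 1.41 ± 0.15 (adjusted p = 1.05e-05, with 45.8% of 12503 genes called in that comparison, 22.2% higher and 23.6% lower), and in epithelium spots against all others Itgb6 was not called (0.27). Itga9 (1.48 ± 0.12), Itga5 (1.18 ± 0.17) and Itgb1 (0.79 ± 0.10) were also higher. Among those called lower were Itgbl1, with 4.52, 3.90, 3.44 and 3.23 inside and 15.1, 9.23, 15.3 and 14.9 outside (-1.66 ± 0.22), and Lama1, with 4.52, 3.07, 2.86 and 4.46 inside and 12.5, 10.8, 11.4 and 10.7 outside (-1.49 ± 0.20). Lama1 is the alpha chain of the first laminin of the embryo.

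Schwann spots (a list with Sox10, Erbb3 and Cdh19, 3.23-fold to 5.54-fold higher) were led by Itga4, Itgb6 and Itga7 as well. There were 13 members higher and 4 lower, with 34.0% of 13668 genes called (15.8% higher and 18.2% lower). Itga4 had 28.5, 43.6, 39.97 and 61.7 inside and 7.57, 7.84, 8.51 and 18.7 outside (log2 2.17 ± 0.16), Itgb6 had 23.8, 27.0, 24.4 and 21.5 inside and 5.30, 7.08, 7.70 and 8.39 outside (1.79 ± 0.16), and Itga7 had 14.3, 22.9, 31.9 and 31.2 inside and 8.26, 6.02, 12.4 and 12.9 outside (1.51 ± 0.18). All 3 were higher in 4 of 4 areas. The skeletal muscle list was 3.27-fold to 6.19-fold higher in these spots, and between 8% and 44.9% of them were muscle spots. Without the 10% of spots with the highest muscle share, 20 to 54 spots per area remained, in which the muscle list was still 1.80-fold to 2.44-fold higher and the epithelium list 0.692-fold to 3.38-fold. Of the members 13 were then higher and 1 lower, with 22.7% of genes called (9.96% higher and 12.7% lower). Itgb6 was at 1.66 ± 0.23 (adjusted p = 0.00195), while Itga4 went to 0.88 ± 0.23 (adjusted p = 0.034) and Itga7 to 0.99 ± 0.19 (adjusted p = 0.00973). In the fit with all Schwann spots Lama1 (-1.03 ± 0.20) and Lamc3 (-0.92 ± 0.23) were the lowest. Lama1 had 10.7, 4.34, 4.02 and 5.32 inside against 12.5, 10.6, 11.1 and 10.5 outside, and Lamc3 had 3.57, 7.35, 3.31 and 2.56 against 7.501, 10.5, 8.79 and 6.61. Neither was called without the muscle spots (adjusted p = 0.239 and 0.412), and Lamc3 was not called without E15.5 replicate 1 (log2 -0.82, adjusted p = 0.106).

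**Figure D3:**
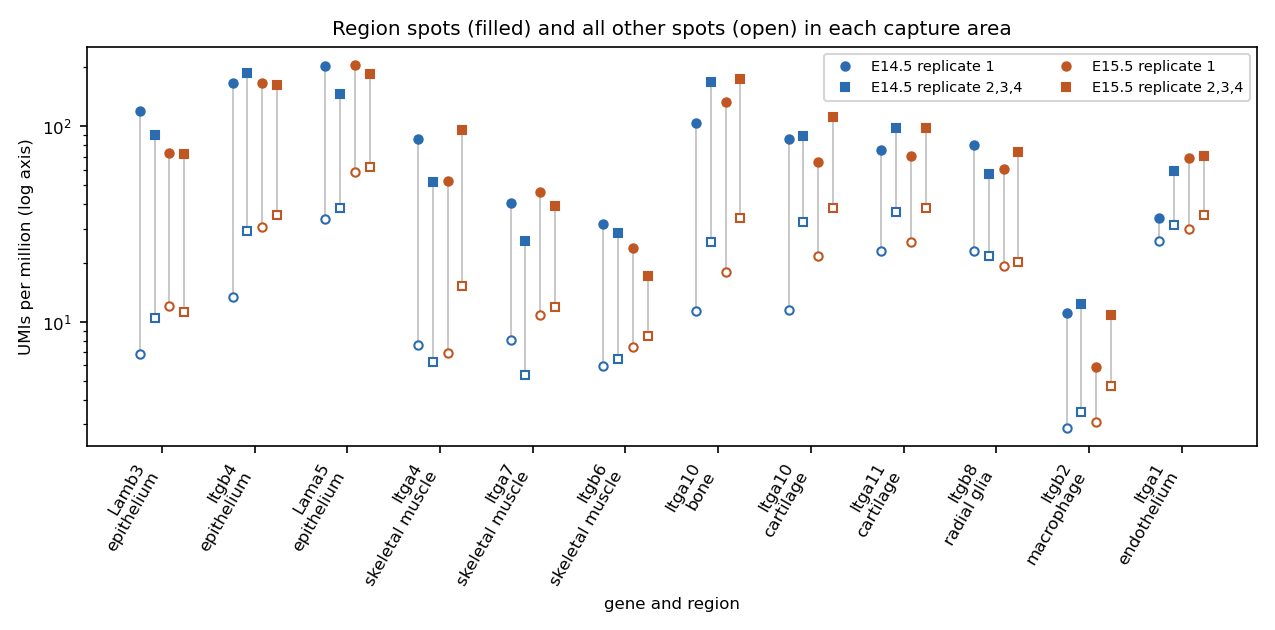
Level of selected members inside region spots (filled) and in all other spots (open) of the same capture area, in CPM (log axis), joined by a grey line; circles are replicate 1 areas, squares the areas of replicates 2,3,4, blue E14.5 and orange E15.5. The filled point lies above the open point in 4 of 4 areas for each gene and region drawn.

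Bone and cartilage spots shared the collagen-binding subunits Itga10 and Itga11. Of the other collagen-binding subunits, Itga2 was called higher and Itga1 lower in bone spots, and neither was called in cartilage spots. In bone spots (list Ibsp, Sp7, Alpl, Ifitm5, Runx2 and Dmp1, 8.005-fold to 21.8-fold higher) 12 members were higher and 7 lower, with 51.4% of 13660 genes called (25.3% higher and 26.1% lower). In cartilage spots (16.2-fold to 19.97-fold higher for the cartilage list) 8 were higher and 9 lower, with 31.4% of 13639 genes called (16.7% higher and 14.8% lower). The median of the members was 0.06 in bone and -0.09 in cartilage, near those of all genes at -0.01 and 0.00. Itga10 (chr3:96645584-96664519, plus strand), the collagen II receptor subunit of chondrocytes, had 104, 169, 133 and 175 CPM in bone spots and 11.3, 25.7, 18.1 and 33.9 outside them (log2 2.93 ± 0.11, adjusted p = 8.28e-06). In cartilage spots it had 86.2, 89.1, 65.3 and 111 against 11.5, 32.6, 21.8 and 38.2 (1.76 ± 0.18, adjusted p = 0.00061). Itga11, a collagen I receptor subunit of mesenchymal cells, had 117, 112, 82.9 and 90.8 in bone spots and 22.1, 34.1, 24.8 and 38.4 outside (1.89 ± 0.14). In cartilage spots Itga11 had 75.7, 98.3, 70.6 and 97.5 against 23.1, 36.3, 25.5 and 38.2 (1.52 ± 0.08, adjusted p = 1.69e-05). Leaving out the 10% of spots with the highest share of the other list gave 12 higher and 6 lower in bone (50.1% of genes called, 25.5% higher and 24.6% lower) and 8 and 8 in cartilage (32.3%, 17.2% higher and 15.2% lower). The cartilage list was still 1.49-fold to 2.24-fold in the bone spots kept, against 0.819-fold to 1.46-fold in all bone spots. The bone list was 1.06-fold to 1.55-fold in the cartilage spots kept, against 0.644-fold to 1.21-fold in all cartilage spots. Compared directly, with spots of both sets left out, bone spots were above cartilage spots by log2 0.97 ± 0.10 for Itga10 (adjusted p = 9.08e-06) and 0.31 ± 0.10 for Itga11 (adjusted p = 0.0304). In that comparison 16 members were higher in bone and 6 higher in cartilage, with 41.7% of 12445 genes called (19.9% higher and 21.8% lower). The largest differences toward bone were those of Itgam (1.54 ± 0.42), Itgb3 (1.37 ± 0.19) and Itgb2 (1.20 ± 0.29), where the macrophage list was 1.20-fold to 1.58-fold, and those toward cartilage were Lama2 (-1.15 ± 0.20), Itgbl1 (-0.94 ± 0.18) and Itgb6 (-0.92 ± 0.39).

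Itgb3, which pairs with Itgav on osteoclasts, was the third member of bone spots. It had 14.6, 15.4, 15.3 and 15.4 inside and 5.30, 6.86, 8.16 and 10.5 outside (log2 1.14 ± 0.16, adjusted p = 0.000979). Each inside value was above each outside value. The inside levels lay close together, but the bone spots of E14.5 replicate 1 held 479491 UMIs in all. The first value therefore rests on few UMIs of Itgb3, and a constant level cannot be read from it. Itgb2, the beta subunit of leukocyte receptors, was higher as well (1.11 ± 0.25). The macrophage list in bone spots was 0.804-fold to 1.45-fold, and the part of blood-derived cells in these values was not tested. The lowest members of bone spots were Itgb6, with 2.09, 2.61, 1.99 and 4.71 inside and 6.45, 8.57, 9.12 and 9.41 outside (-1.31 ± 0.25), and Itgb8, with 8.34, 6.47, 11.4 and 10.7 inside and 30.6, 24.7, 22.4 and 22.9 outside (-1.17 ± 0.21). In cartilage Itgbl1 was the third of the higher members, with 26.4, 15.9, 29.0 and 27.7 inside and 14.5, 8.46, 13.6 and 13.3 outside (1.07 ± 0.12, adjusted p = 0.00078). The lowest there were Itga4, with 10.6, 3.83, 3.63 and 5.10 inside and 8.65, 10.1, 10.9 and 22.2 outside (-1.52 ± 0.27), and Itga7, with 12.3, 4.98, 5.02 and 4.90 inside and 8.44, 7.05, 14.1 and 14.5 outside (-0.97 ± 0.28). E14.5 replicate 1 went the other way for both, on 6 and 7 UMIs. The call of Itga7 was lost without E15.5 replicate 1 (-0.80, adjusted p = 0.132) and without E15.5 replicates 2,3,4 (-0.70, adjusted p = 0.261). The number of members called in cartilage fell from 17 to 9 without E14.5 replicates 2,3,4 and to 8 without E15.5 replicates 2,3,4, with no called member changing sign. The share of all genes called fell too, from 31.4% to 13.4% and 14.4%.

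Endothelium spots gave few calls, and macrophage spots many. In endothelium spots (2.49-fold to 4.73-fold for a list of 9 genes) 10 members were higher and 1 lower, with 11.0% of 13547 genes called (7.09% higher and 3.87% lower). The median was 0.32 over members and -0.03 over all genes. Itga1, a collagen IV receptor subunit, had 33.8, 59.3, 68.5 and 70.4 inside and 25.9, 31.2, 29.8 and 35.0 outside (log2 0.98 ± 0.13, adjusted p = 0.00373). Lama4, the alpha chain of the vascular laminin-411, had 131, 100, 87.6 and 144 inside and 60.2, 54.4, 74.5 and 97.6 outside (0.62 ± 0.12, adjusted p = 0.0251), and its partner chains Lamb1 (0.54 ± 0.12) and Lamc1 (0.42 ± 0.10) were called as well. Itgal and Itgb2, which together form LFA-1, rested on few counts: 1, 17, 12 and 18 UMIs for Itgal and 1, 24, 11 and 37 for Itgb2. Itgal had 3.76, 6.11, 4.33 and 5.37 CPM inside and 0.993, 2.48, 2.21 and 3.09 outside (1.03 ± 0.26, adjusted p = 0.0523), and Itgb2 had 3.76, 8.62, 3.97 and 11.0 inside and 3.11, 3.66, 3.16 and 4.76 outside (0.96 ± 0.25, adjusted p = 0.0589). The macrophage list was 1.56-fold to 2.30-fold higher in endothelium spots. Without the 10% of spots with the highest macrophage share only Itga1, Lama4 and Lamb1 were called, with 5.79% of genes (4.09% higher and 1.7% lower), and Itgal (0.71, adjusted p = 0.259) and Itgb2 (0.81, adjusted p = 0.23) were not. In the spots kept the macrophage list was still 1.41-fold to 1.60-fold higher. The number of members called fell to 2 without E14.5 replicates 2,3,4 and to 1 without E15.5 replicates 2,3,4, and the share of all genes called fell from 11.0% to 4.63% and 2.6%. Itgal, Itgb2, Lama4, Lamb1 and Lamc1 lost their calls in both, the 3 laminin chains at log2 values of 0.38 to 0.67 with adjusted p between 0.102 and 0.202.

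In macrophage spots (3.19-fold to 5.10-fold for a list of 9 genes) 22 members were higher and 3 lower, with 47.3% of 13601 genes called (23.3% higher and 24.0% lower). The leukocyte subunits came first. Itgb7, which pairs with Itga4 on lymphocytes, had 2.22, 8.43, 10.3 and 8.72 inside and 2.21, 2.67, 2.20 and 3.14 outside (log2 1.71 ± 0.25, adjusted p = 0.000798), the first value being a single UMI. Itgb2 had 11.1, 12.4, 5.87 and 10.9 inside and 2.88, 3.46, 3.08 and 4.71 outside (1.44 ± 0.22), and Itgal had 6.65, 7.19, 5.50 and 5.82 inside and 0.871, 2.40, 2.17 and 3.05 outside (1.38 ± 0.26). Itgam, the alpha subunit of the complement receptor CR3, was higher in 4 of 4 areas (1.22 ± 0.22). The 4 leukocyte subunits and Itgb3 (1.13 ± 0.18) were the members above log2 1. The lowest were Itgb8, with 26.6, 10.4, 14.3 and 15.5 inside and 30.0, 24.0, 22.1 and 22.5 outside (-0.70 ± 0.16), and Itga10, with 22.2, 26.3, 13.9 and 24.7 inside and 14.01, 35.6, 24.5 and 43.2 outside (-0.57 ± 0.16). The endothelium list was 1.47-fold to 2.07-fold and the epithelium list 1.08-fold to 1.67-fold in these spots, and their part in the values was not tested. Without E15.5 replicate 1 the number of members called went from 25 to 16 and the share of all genes from 47.3% to 30.6%, and Itga10 was not called (-0.47, adjusted p = 0.133).

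The neural regions had low values for nearly every member. In neuron spots (3.22-fold to 8.73-fold for the neuron list) 29 members were lower and 2 higher, with 70.9% of 13430 genes called (33.4% higher and 37.5% lower), and the median log2 fold change was -1.94 over members and -0.04 over all genes. The lowest were Itga7, with 3.46, 0.625, 0.953 and 0.635 inside and 9.12, 7.24, 14.2 and 14.4 outside (-3.25 ± 0.44), and Itgb4, with 4.84, 7.29, 2.54 and 2.54 inside and 19.2, 37.8, 39.2 and 44.4 outside (-2.97 ± 0.35). The inside values of Itga7 rest on few UMIs in every area. Called higher were Lama1, with 17.3, 10.2, 12.7 and 13.02 inside and 11.9, 10.2, 10.6 and 10.1 outside (0.36 ± 0.15, adjusted p = 0.0724), and Itga3, with 29.8, 35.6, 28.6 and 31.7 inside and 25.3, 24.3, 28.3 and 29.3 outside (0.33 ± 0.13, adjusted p = 0.0608). Both calls were lost with library size scaling (adjusted p = 0.16 for Lama1 and 0.142 for Itga3). That of Lama1 was also lost without E14.5 replicate 1, E15.5 replicate 1 or E15.5 replicates 2,3,4 (log2 0.30 to 0.38), and that of Itga3 without E14.5 replicates 2,3,4 (0.21, adjusted p = 0.227). In radial glia spots (list Hes5, Fabp7, Slc1a3, Sox2 and Pax6, 4.53-fold to 7.4997-fold) again 29 members were lower and 2 higher, with 57.2% of 13472 genes called (26.4% higher and 30.8% lower) and a median of -1.31 over members against -0.02 over all genes. Itgb8 (chr12:119158022-119238802, minus strand), a partner of Itgav that releases active TGF-beta, had 80.3, 57.1, 60.7 and 73.7 inside and 22.9, 21.8, 19.3 and 20.3 outside (1.69 ± 0.11, adjusted p = 6.96e-05). It was the opposite of its levels in bone, cartilage, muscle and macrophage spots, where it was called lower. The call in muscle was lost without E14.5 replicates 2,3,4 (adjusted p = 0.188) or E15.5 replicate 1 (0.144), and that in cartilage without E14.5 replicates 2,3,4 (0.111). Lama1 (chr17:67697259-67822647, plus strand) had 15.1, 19.8, 21.9 and 22.9 inside and 12.1, 9.75, 9.97 and 9.77 outside (0.99 ± 0.17, adjusted p = 0.00214). The lowest members of radial glia spots were Itga10, with 3.23, 6.93, 5.89 and 5.02 inside and 15.8, 36.7, 25.3 and 43.7 outside (-2.48 ± 0.19), and Lamb3, with 1.08, 4.31, 1.72 and 2.51 inside and 11.3, 14.6, 15.99 and 15.5 outside (-2.48 ± 0.28). Itgav, the alpha partner of Itgb8, was not called there (-0.33). The lens list was 0.940-fold to 2.52-fold in radial glia spots, and its part in the Lama1 value was not tested. Lama1 also stood out where the sections held lens. In the spots with at least 1% of their UMIs in crystallin genes, which numbered 96 in E14.5 replicates 2,3,4 and 109 in E15.5 replicates 2,3,4, Lama1 had 35.1 and 24.9 CPM against 9.0003 and 9.48 in all other spots. These are 3.90-fold and 2.63-fold, given without a test. The other areas had 18 such spots (E15.5 replicate 1) and 0.

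**Figure D4:**
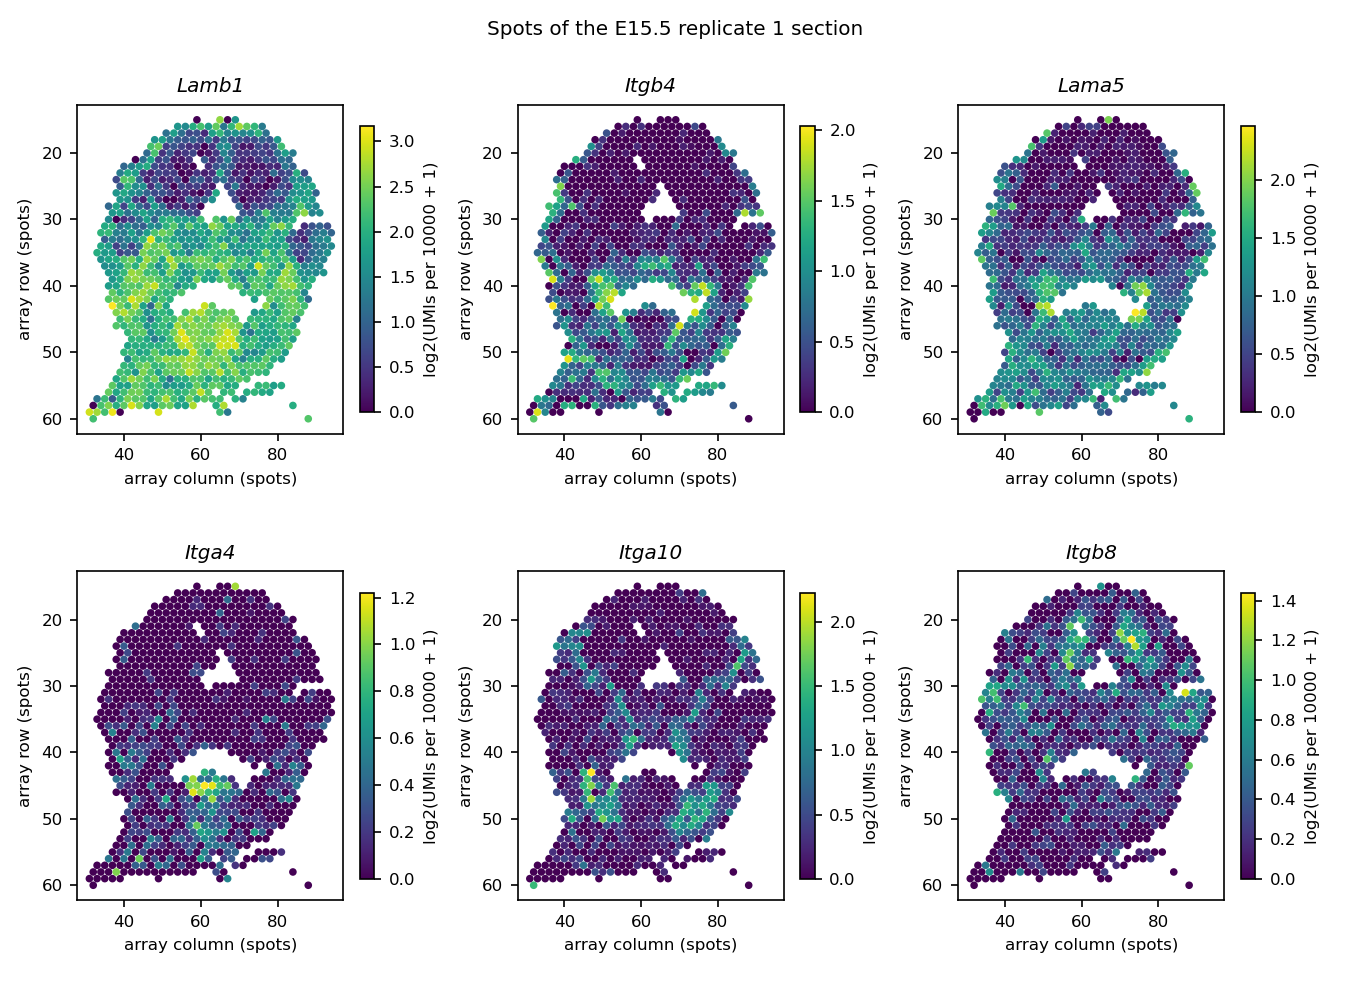
Level of 6 members in each of the 989 spots of the E15.5 replicate 1 section, as log2(UMIs per 10000 UMIs of the spot + 1), on the array grid (row and column numbers of the spots); each map has its own colour scale. Lamb1 is seen in 97.9% of the spots, Itgb4 and Lama5 are highest beside the crescent-shaped gap in the tissue and along the outer edge, Itga4 is highest in a patch just under that gap, Itga10 runs in bands above it and patches below it, and Itgb8 is highest in the upper part of the section.

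Genes that work with the members were followed in 3 lists. Beside their counts stand the shares of all genes called in either direction in the same fits: 37.2% in epithelium, 32.1% in palatal mesenchyme, 46.7% in skeletal muscle, 34.0% in Schwann, 51.4% in bone, 31.4% in cartilage, 11.0% in endothelium, 47.3% in macrophage, 70.9% in neuron and 57.2% in radial glia spots. Several counts lie near these shares, such as 10 of 17 in bone for the basement membrane partners, and with so few genes they are given as descriptions. Of 17 basement membrane partners, 9 were higher and 3 lower in epithelium spots, led by Col17a1, the hemidesmosome collagen (log2 2.86), Bcam, a Lama5 receptor (1.70), and Frem2 (1.68). The 3 lower were Nid2 (-0.53) and the collagen IV chains Col4a3 and Col4a4, and in radial glia spots Col4a3 (2.16) and Col4a4 (1.89) were higher. The list had 11 higher and 2 lower in palatal mesenchyme spots, 10 and 4 in skeletal muscle, 11 and 3 in Schwann, 3 and 7 in bone, 3 and 7 in cartilage, 5 and 0 in endothelium, 8 and 2 in macrophage, 2 and 13 in neuron and 4 and 11 in radial glia spots. The endothelium spots had Col4a2 (0.89), Col4a1 (0.80), Nid2 (0.67) and Nid1 (0.58) above the rest, the main collagen IV chains and the nidogens that bind them to laminin. Of 11 adhesion plaque genes, 7 were higher and none lower in muscle spots, with Vcl, vinculin, at 1.28, and Tln2, the muscle talin, at 1.25. In epithelium spots 4 were higher and none lower, led by Fermt1, the kindlin of epithelia (2.36), and in macrophage spots 8 and 0, led by Fermt3, the kindlin of blood cells (1.61). The counts of higher and lower plaque genes were 8 and 0 in Schwann, 6 and 0 in bone, 3 and 2 in cartilage, 3 and 0 in endothelium, 6 and 0 in palatal mesenchyme, 0 and 10 in neuron and 0 and 8 in radial glia spots. Of 9 other integrin ligands, 5 were higher and 3 lower in bone spots, led by Npnt, nephronectin (1.79), and Tnc, tenascin C (1.69). Higher and lower ligands numbered 3 and 3 in epithelium, 2 and 2 in muscle, 3 and 2 in Schwann, 4 and 1 in cartilage, 4 and 1 in endothelium, 5 and 0 in macrophage, 3 and 1 in palatal mesenchyme, 2 and 7 in neuron and 1 and 4 in radial glia spots. Between the stages none of the 3 lists had a call, with medians of 0.25, 0.13 and 0.15.

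Known partner subunits were also compared spot by spot, as Pearson's r of log-scaled levels over the spots of an area. Spots of an area share a library and differ in depth, so r is a description. Of 20 pairs, the highest mean r over the 4 areas was that of Itgav and Itgb5, the vitronectin receptor, at 0.277, 0.501, 0.628 and 0.623. Lamb1 and Lamc1, the core of most laminins, had 0.192, 0.496, 0.723 and 0.554. Lama3 and Lamb3 of laminin-332 had a mean of 0.247. Itga6 and Itgb4 reached a mean of 0.250. With every spot thinned to 3000 UMIs these values moved toward 0. The means were 0.144 for Itgav and Itgb5, 0.133 for Lamb1 and Lamc1, 0.0384 for Lama3 and Lamb3, 0.0138 for Itga6 and Itgb4 and -0.0113 for Itgav and Itgb8. The first 2 pairs kept the highest means and the other 3 named lay near 0. Members with few UMIs, such as Lama3 with 4.47, 9.17, 9.58 and 10.8 CPM over whole areas, are missing from most spots at that depth. An r near 0 there does not show that 2 genes lie apart, and the order of the pairs also depends on their levels. At full depth, r in the shallow E14.5 replicate 1 was the lowest of the 4 areas for most pairs. Itgav with Itgb8 was the only pair with a mean below 0 at full depth, at 0.0917, -0.0534, -0.0360 and -0.139. With thinned spots Itgal with Itgb2 (-0.0102) and Itga3 with Itgb1 (-0.00623) had means below 0 as well. The leukocyte pairs Itgal with Itgb2 and Itgam with Itgb2 had full-depth means of 0.0502 and 0.0387, too weak in such sparse counts to read. Across all pairs of members, not only partners, Lamb1 with Itgb5 had the highest mean at full depth, 0.514.

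**Figure D5:**
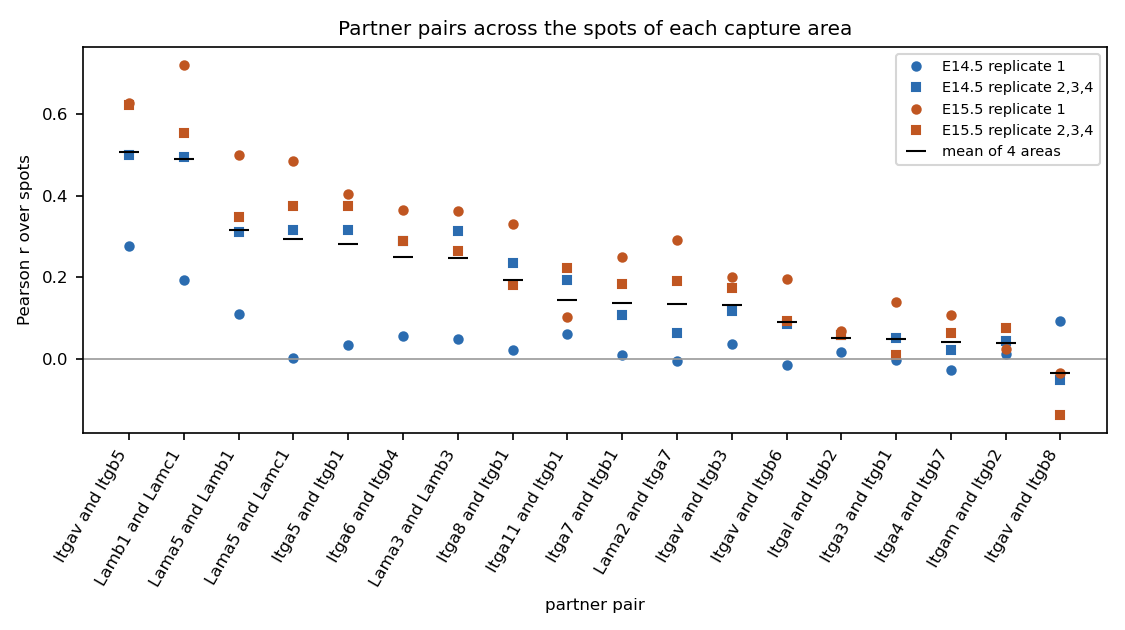
Pearson's r over spots for 18 of the 20 partner pairs in each capture area (circles replicate 1, squares replicates 2,3,4; blue E14.5, orange E15.5), with a black bar for the mean of the 4 areas. Itgav with Itgb5 and Lamb1 with Lamc1 have the highest means, and blue circles, the shallow area, lie lowest for most pairs.

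Over the 11143 genes with at least 100 UMIs in every area, the genes most like the leading members were ranked by mean r over the 4 areas, with spots at their full depth. Lamb3 was nearest to the keratin Krt17 (0.509), then to Sostdc1 (0.464) and Krt14 (0.439). Itgb4 lay nearest to Krt14 (0.585), the desmosome gene Dsp (0.550) and Krt15 (0.549). The genes nearest to Itga4 were Casq2 (0.413), Tceal7 (0.409) and Myom2 (0.406), and those nearest to Itga7 were Myl1 (0.407), Myh8 (0.398) and Myog (0.397), of which Casq2, Myom2, Myl1 and Myh8 belong to the contractile or calcium-storing machinery of muscle. Itga10 was nearest to Panx3, Col11a2 (both 0.571) and Kazald1 (0.569), and Itga11 to Cthrc1 (0.456), Col11a1 (0.445) and Col11a2 (0.434). Itgb8 had Ttyh1 (0.349) and Adgrv1 (0.348) among its nearest 3, Lamc3 had Bmp6 (0.212), Foxf2 (0.210) and Msx1 (0.204), and Itgbl1 had Six2 (0.343), Foxc1 (0.303) and Ugt2a1 (0.294). Itga6 had Krt5 (0.307), Krt14 (0.305) and Emp1 (0.300), Itga3 had Col17a1 (0.307), Itgb4 (0.291) and Spint2 (0.290), and Itga1 had the basement membrane genes Col4a1 (0.218) and Nid2 (0.210) with Selenop (0.213). For Lama1, the nearest were Dkk3 (0.241), Mgarp (0.239) and Hmx1 (0.235). Krt5, Krt14, Krt15, Krt17, Myh8 and Msx1 are also markers that chose the regions. When every spot was thinned to 3000 UMIs, which left 750 to 2033 spots per area, spatial clustering by Moran's I, which is near 0 for a random scatter, was highest for Itgb5 (mean 0.207 ± 0.0688, SD over 4 areas), Lamb1 (0.179 ± 0.0304) and Lamc1 (0.105 ± 0.0254). The median over the described members was 0.0349, and that of all 14624 genes scored was 0.0108 to 0.0134 in an area. Members with few UMIs lie near 0 at that depth, so a low value there does not show an even spread.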

How the data were processed

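Visium libraries of 4 capture areas, 2 per stage, were used, with 1 area per stage labelled replicate 1 and 1 holding replicates 2, 3 and 4. The deposited values are UMI counts per gene and spot, made by the authors with Space Ranger (per the file headers version 2.0.0 where replicates 2, 3 and 4 share an area, and 1.3.1 otherwise) on mm10 (per the submitters' processing notes) and not normalized. The spot position files hold other, unitless values that mark tissue. The probe set is not given in the sources used here. The 19 barcodes outside tissue were left out of all but the total UMIs of each member. The 22 genes that share a symbol were kept apart by identifier. Depth was 15438992 to 109127953 UMIs per area, so members with few UMIs are imprecise, above all in E14.5 replicate 1. Counts were summed per area, or inside and outside each region, where spots needed at least 1000 UMIs and at least 3 UMIs of the list. Sums were tested with edgeR 4.0.16 (R 4.3.3; quasi-likelihood, TMM, filterByExpr), with Benjamini-Hochberg adjustment over all genes tested and a threshold of 0.1. The standard error is the log2 fold change divided by the root of F. Regional fits held the area as a term. DESeq2 1.42.0, library size scaling, no filter, other sizes of regions, other depth minimums, a stricter threshold and leaving out each area were tried as alternatives. Reduced and direct comparisons of regions and the interaction with stage were added after seeing the data. Spot correlations and Moran's I used ln(UMIs per 10000 + 1). The fits were tested on simulated data. Gene positions are those of GENCODE M21 (GRCm38), found for 37 of 37 members.

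Named with values in every area were, between stages, the 3 members with the largest and the 3 with the smallest log2 fold change, and in each region the 3 highest and 2 lowest among those called, with chains of laminin-332 and Itga6 and Itgb4. Some genes that the rule or a marker list would name, 1 member among them, are not reported here, while counts over all members include it. For these the 3 genes with the highest mean r were named. Other members named with values, among them Lama2 and Itgb2 in bone and muscle spots, Lamc3, Itgbl1 and Itga8 in palatal spots and Lama4 in endothelium spots, were chosen after their values were seen. The members and the gene lists were chosen with earlier results of these data known, so no count here is independent support for them.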

Additional observations from a re-analysis of the deposited data

Results flagged for a closer look

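The regional difference of 2 of 34 members differed between the stages in endothelium spots, by an interaction of region and stage in edgeR. In that fit 5.7% of 13547 genes had an adjusted p under 0.1. The count of members lies near that share, so it is no result about the members as a group. Lama5 had 75.1, 59.3, 42.2 and 54.6 CPM inside and 37.8, 42.9, 67.1 and 69.8 outside, so that both E14.5 areas were higher inside and both E15.5 areas lower. The difference in log2 fold change, E15.5 over E14.5, was -0.98 ± 0.20 (adjusted p = 0.0251). Itgb6 had 18.8, 11.5, 3.61 and 4.48 inside and 6.09, 8.09, 8.97 and 9.31 outside, with a difference of -1.76 ± 0.44 (adjusted p = 0.0541) that rests on 5, 32, 10 and 15 UMIs inside. The skeletal muscle list in endothelium spots ranged from 0.432-fold to 2.01-fold and the epithelium list from 0.576-fold to 1.29-fold over the areas, and their part in either difference was not tested. In the other 9 regions no member passed this test.

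Among 48 pairs of a named member and a region, 1 had an area that stood apart from the other 3. Itga10 in cartilage spots was 7.51-fold higher in E14.5 replicate 1 and 2.73-fold to 3.00-fold higher in the others, with 49 UMIs inside in that area. Chance gives such a gap in about 1 of 20 groups.

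Barcodes off tissue, used in no comparison, held 842 UMIs of the members. They were 196 of 209555 UMIs in 8 barcodes of E14.5 replicates 2,3,4 and 646 of 352936 UMIs in 11 barcodes of E15.5 replicates 2,3,4.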

How the results depend on the processing

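No call became a call of the other direction. Of 551 alternatives to the 48 named regional values, 508 kept direction and call and 43 lost the call, in 12 of the 48. Between stages 337 of 340 alternatives kept the side of the threshold. That count does not cover the sign of members without a call. Itgb5 and Itga8 had log2 fold changes of 0.12 and 0.07 over the 4 areas. In E14.5 replicates 2,3,4, however, their CPM (341 and 40.4) lay above those of both E15.5 areas (240 and 309, 34.3 and 34.4). DESeq2 called 3 members and 476 genes there in place of 0 and 0, and leaving out 1 area gave 0 to 78 genes. Comparing with spots at or under the median share of the list raised the members called from 17 to 26 in Schwann and from 11 to 19 in endothelium spots, and all genes called from 34.0% to 44.7% and from 11.0% to 34.3%. In endothelium spots the number fell to 6 with the top 2.5% of spots (4.2% of all genes), 5 at an adjusted p under 0.05 (5.24%) and 3 without macrophage-list spots (5.79%). Leaving out 1 area gave 1 to 10 members in endothelium (2 without E14.5 replicates 2, 3 and 4), 8 to 19 in cartilage (9 without that area), 16 to 25 in macrophage (24 without E14.5 replicate 1) and 14 to 19 in Schwann spots, with 2.6% to 15.9%, 13.4% to 34.0%, 28.0% to 49.6% and 18.4% to 35.8% of all genes called. The median Moran's I of 0.0349 became 0.251 with all UMIs and 0.0137 with spots thinned to 1000 UMIs, and the median r of partner pairs went from 0.169 to 0.0315 with spots thinned to 3000 UMIs, so both move with depth. The cause of the other changes was not tested. The replicate block called 0 members and 0 genes between stages. The labels share only the replicate number, and deviations of the same-numbered areas had r = 0.246 over 15609 genes.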
